A study of Mus musculus with 30 samples.

Results

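The comparison set Lrrk2 knockout (KO) against wild-type (WT) mouse microglia over every treatment of the study at once. All 15 KO and all 15 WT libraries entered it, that is 30 of the 30 libraries of the series, and the treatment was kept as a blocking factor so that only the difference between genotypes within a treatment counted. The KO libraries were 6 controls, 4 treated with lipopolysaccharide (LPS) and 5 treated with α-synuclein fibrils. The WT libraries were 5 controls, 6 treated with LPS and 4 treated with fibrils. LPS, from the outer membrane of bacteria, is sensed through Toll-like receptor 4, and α-synuclein fibrils are aggregates of the protein that accumulates in Parkinson's disease. All cells were primary microglia from the brains of C57BL/6 mice of postnatal day 21, and the KO cells carried Lrrk2-/-, a deletion present in every cell of the animal. The origin of the deleted allele, the substrain of either line, whether KO and WT animals were littermates, and the doses and treatment times used are not given in the labels. Neither is sex. Nothing states that replicates came from separate cultures or animals, so p-values measure the spread between these libraries, which may be technical.

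LRRK2 is a large protein with a kinase and a GTPase domain, and mutations that raise its kinase activity are a cause of inherited Parkinson's disease. The kinase phosphorylates a set of Rab GTPases, which direct vesicle traffic, and it acts on stressed lysosomes. In microglia and other myeloid cells LRRK2 is studied for its part in inflammatory signalling, which starts at Toll-like receptors and runs through IRAK4 and other adaptors to NF-kB.

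Counts of the 94647 deposited transcripts were summed to 38031 genes, of which 25899 had any count and 14346 passed a filter on low counts. The total per library was between 8936310 and 35677005, and its median was 20442860 in KO and 20421608 in WT libraries. Microglia identity genes summed to 6469 to 11226 CPM (counts scaled for library size) in KO and 7975 to 10504 CPM in WT libraries, which fits the labelled cell type. Markers of other brain cells were present at low and uneven levels in both genotypes. They were low in all 4 WT fibril libraries, and also in WT LPS 6 and WT control 6. Xist and the Y-linked gene Ddx3y were read in every library, so each library held RNA of both sexes. Xist measured 229 to 1390 CPM in KO and 436 to 1624 CPM in WT libraries. Ddx3y measured 49.5 to 169 CPM in KO and 54.3 to 92.0 CPM in WT libraries. With LPS the genotypes did not overlap in either gene. There Xist was at 265 to 648 CPM in KO and 873 to 1624 CPM in WT libraries. Ddx3y was at 129 to 169 CPM in KO and 70.3 to 90.6 CPM in WT libraries with LPS. The sex mix thus differed between genotypes with LPS, and its part in the calls was not tested. An earlier reading of these data listed 7 libraries as standing apart (KO control 1, 4 and 6, KO fibril 5, WT control 6, WT LPS 1 and 6). Counts without them are given below.

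Lrrk2 itself was the gene with the smallest p. It spans 15:91673175-91816120 on the plus strand (mm10, GENCODE M21). Its level ran from 0.731 to 4.68 CPM with a median of 2.22 CPM in the KO libraries, against 6.87 to 16.7 CPM with a median of 12.3 CPM in the WT libraries. No KO library reached the lowest WT library in any treatment. The difference was -2.29 ± 0.13 on the log2 scale (SE, 15 KO and 15 WT libraries; edgeR quasi-likelihood test, Benjamini-Hochberg adjusted p = 1.03e-12). A two-sided permutation of genotype within treatments with 100000 draws gave p = 1e-05, the smallest these draws can give. Most of the 797 remaining KO counts lay on the coding transcript. The coding transcript Lrrk2-201 held 625 counts over the 15 KO libraries and 3898 over the 15 WT libraries, whereas the retained-intron transcript Lrrk2-203 held 149 in KO and 170 in WT libraries. Lrrk1, the closest relative of Lrrk2, averaged 29.9 ± 8.57 CPM in KO and 34.2 ± 6.63 CPM in WT libraries (SD, n = 15 each; adjusted p = 0.185 by the same edgeR test).

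Over all treatments 838 of 14346 genes (5.84%) were called at an adjusted p under 0.05 by the edgeR test, 450 (3.14%) higher and 388 (2.70%) lower in KO cells. Most differences were small. The median size over the called genes was 0.53 on the log2 scale, and 54.2% of them differed by less than 1.5-fold. Large differences lay mainly on one side, with 88 genes at least 4-fold higher and 8 at least 4-fold lower. A firmer threshold of 0.001 was passed by 90 genes (0.627%). The number of calls depended strongly on the libraries and on the scaling: it was 2611 without the 7 libraries named above, and 475 with the level of other-cell markers as a covariate. Scaling by library size alone gave 1490 calls of which 87.6% were higher, against 53.7% with the scaling used here, and DESeq2's size factor method (RLE) in edgeR gave 865 calls of which 64.5% were higher. Leaving out 1 library gave between 509 calls (without KO LPS 4) and 1514 (without WT LPS 1), and 1424 without KO control 6.

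A narrower set of genes did not depend on a model. In 33 genes (0.230% of those tested) the KO and WT libraries did not overlap within any of the 3 treatments, in the same direction each time, and in 17 of these (0.118%) the 15 KO libraries did not overlap the 15 WT libraries at all. All 33 were called in the additive fit. They stayed called in each alternative and each omission of 1 library that tested them. The members were picked by their separation after their values were seen, so this is a description of how far apart the libraries lay. The 17 were Lrrk2, Nnt, Irak4, Atp10d, Heatr5a, Ercc2, Ccdc61, C5ar2, Iqgap2, Eps8l1, Sbk2, Naip3, Gm14548, Gm15925, Gm14150, Gm17383 and 1500015A07Rik, 9 of them higher and 8 lower in KO cells.

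Nnt encodes the mitochondrial nicotinamide nucleotide transhydrogenase, which makes NADPH in the matrix, and is known to be partly deleted in the C57BL/6J substrain. It measured 45.6 to 97.5 CPM with a median of 71.9 CPM in KO libraries, against 30.5 to 40.9 CPM with a median of 35.9 CPM in WT libraries. All 15 KO libraries lay above all 15 WT libraries, and the difference of 0.95 ± 0.06 (log2, SE; edgeR adjusted p = 2.32e-12) was 0.95, 1.08 and 0.80 in controls, with LPS and with fibrils. Its main coding transcript, Nnt-202, held 16402 counts over the KO and 9182 over the WT libraries, and the coding transcript Nnt-201 held 4148 in KO and 1620 in WT libraries. Of 6 tested genes listed as differing between C57BL/6 substrains, 2 rose (Nnt and Wdfy1) and 2 fell (Ide and Cyfip2), 66.7% against 5.84% of all genes. The list is short and was written with earlier results of these data known, so this share is a description. Wdfy1, an adaptor of Toll-like receptors 3 and 4, measured 29.8 ± 10.6 CPM in KO and 16.7 ± 2.82 CPM in WT libraries (SD, n = 15 each; 0.75 ± 0.14, edgeR adjusted p = 0.00109). KO LPS 3 and 4 (14.6 and 14.7 CPM) lay within the WT LPS range of 13.5 to 20.3 CPM. The call of Wdfy1 was lost without the controls. Ide, the insulin-degrading enzyme, measured 87.3 ± 8.82 CPM in KO and 110 ± 15.5 CPM in WT libraries (-0.31 ± 0.06, edgeR adjusted p = 0.00172). Whether the lines differ in substrain was not tested, and the effect of Lrrk2 loss and of any other difference between the lines cannot be told apart here.

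Irak4 encodes the kinase that carries signals from Toll-like and interleukin-1 receptors. It lies 2.73 Mb from Lrrk2 on chromosome 15. It measured 14.2 to 24.3 CPM with a median of 18.5 CPM in KO libraries, against 24.8 to 39.7 CPM with a median of 31.8 CPM in WT libraries. The difference was -0.76 ± 0.05 (edgeR adjusted p = 8.98e-11), with -0.65 in controls, -1.0 with LPS and -0.65 with fibrils. Atp10d, a lipid flippase annotated as a polymorphic pseudogene, went the other way. It measured 15.2 to 29 CPM with a median of 20.5 CPM in KO libraries, against 3.33 to 12.1 CPM with a median of 6.98 CPM in WT libraries. Its difference was 1.75 ± 0.13 (edgeR adjusted p = 2.77e-10).

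**Figure D1:**
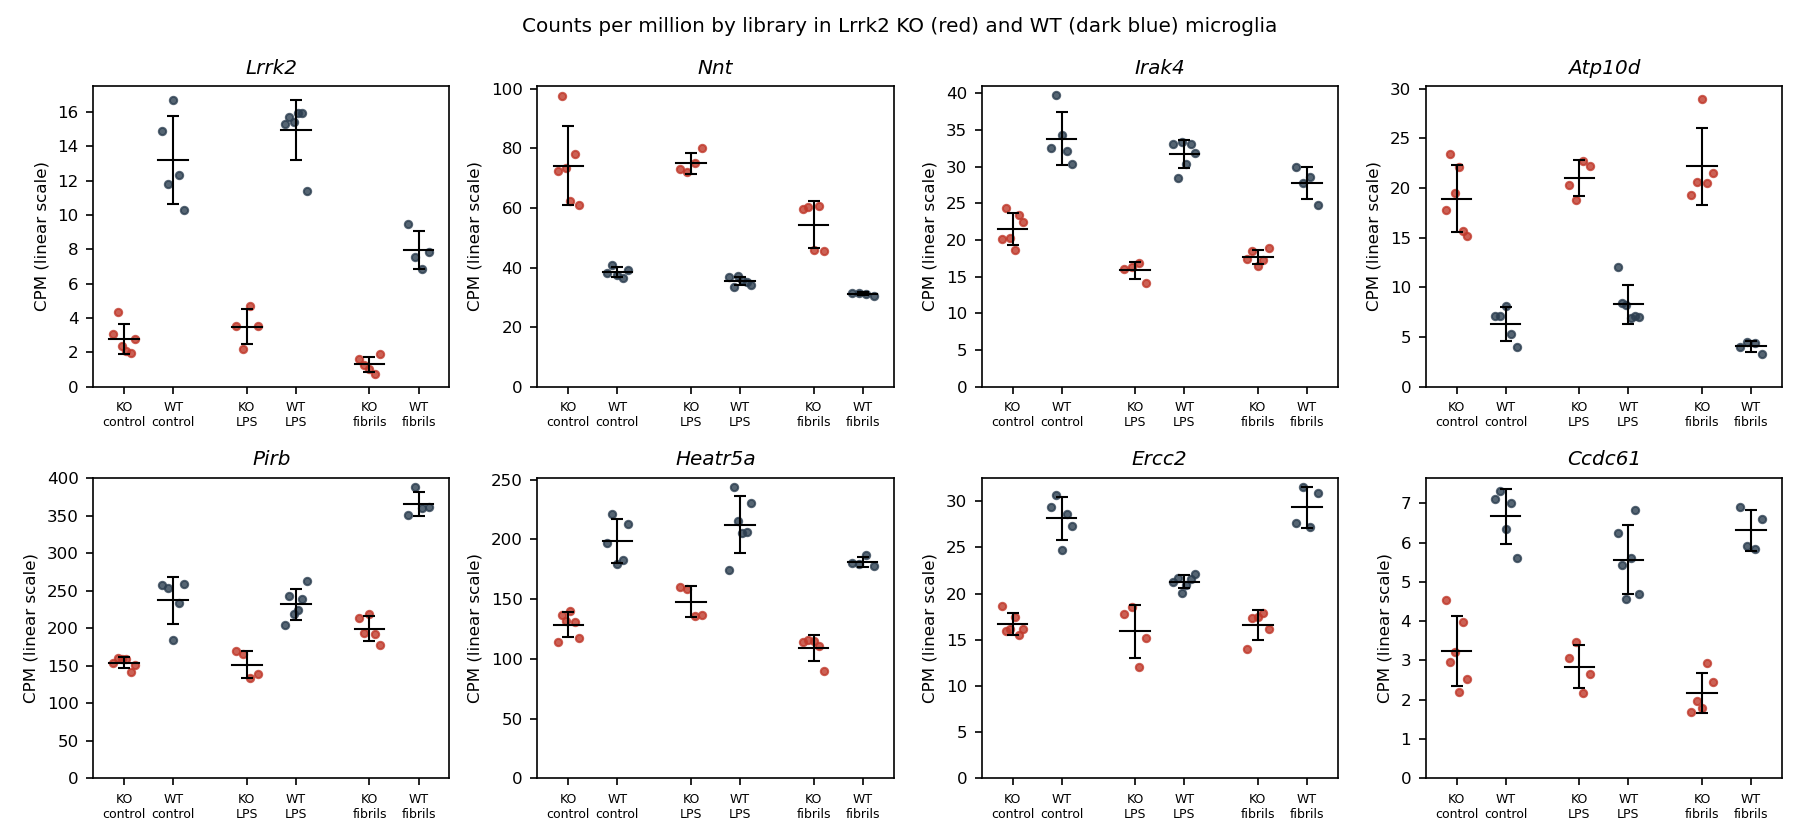
CPM on a linear axis for the 8 named genes with the smallest p, in KO (red) and WT (dark blue) libraries of each treatment. Points are libraries, and lines and bars are mean ± SD. Lrrk2, Irak4, Pirb, Heatr5a, Ercc2 and Ccdc61 lie lower and Nnt and Atp10d higher in KO libraries, with no overlap of the genotypes within a treatment.

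Several of the separated genes encode receptors and sensors of innate immunity, and they did not move in 1 direction. C5ar2, the second receptor of complement fragment C5a, measured 0.535 to 5.86 CPM with a median of 2.27 CPM in KO libraries and 7.59 to 17.6 CPM with a median of 10.4 CPM in WT libraries (-2.17 ± 0.23, edgeR adjusted p = 2.45e-07). C5ar1, its neighbour and the main C5a receptor, also fell (210 ± 66.1 CPM in KO and 399 ± 154 CPM in WT libraries; SD, n = 15 each; -0.80 ± 0.14, edgeR adjusted p = 7.03e-04). These were the 2 called members of 18 tested complement genes (11.1%, against 5.84% of all genes). The median difference of the 18 was -0.02, against 0.00 over all genes tested. Pirb, an inhibitory receptor with immunoglobulin-like domains, fell (168 ± 26.2 CPM in KO and 269 ± 63.9 CPM in WT libraries; -0.70 ± 0.05, edgeR adjusted p = 3.95e-10), and so did its activating relative Pira2 (11.8 ± 2.88 CPM in KO and 31.2 ± 8.09 CPM in WT libraries; -1.42 ± 0.14, edgeR adjusted p = 6.44e-08). Lilra6, of the same family, rose (13.5 ± 4.56 CPM in KO and 2.64 ± 1.75 CPM in WT libraries; 2.32 ± 0.24, edgeR adjusted p = 1.75e-07). The neighbouring Gm14548, which shares sequence with them, measured 18.1 to 50.8 CPM with a median of 27.5 CPM in KO libraries and 1.25 to 5.23 CPM with a median of 2.27 CPM in WT libraries (3.63 ± 0.22, edgeR adjusted p = 2.32e-12).

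Reads of this family are hard to assign. Of the stretches of 100 bases in each transcript, 86.5% in Pira2, 51.9% in Gm14548, 35.6% in Pirb and 15.8% in Lilra6 also occur in another gene, so the split of reads between them is uncertain. Its part in the opposite directions of Pira2 and Gm14548 was not tested. The first 100 coding bases of Pira2, Gm14548 and Lilra6 are shown because they make the problem visible. They are read from GENCODE M21 transcripts on the minus strand of chromosome 7 (mm10), at 7:3844589-3845023, 7:3897650-3898084 and 7:3915044-3915475, each spread over more than 1 exon. Capitals mark the only 3 positions at which the sequences differ.
Pira2: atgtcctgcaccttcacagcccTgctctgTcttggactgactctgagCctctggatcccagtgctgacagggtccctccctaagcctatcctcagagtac
Gm14548: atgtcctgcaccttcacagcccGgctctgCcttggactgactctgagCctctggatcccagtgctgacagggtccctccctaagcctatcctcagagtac
Lilra6: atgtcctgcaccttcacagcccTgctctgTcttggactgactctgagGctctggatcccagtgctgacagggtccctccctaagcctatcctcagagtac

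The NAIP proteins, which sense bacterial flagellin and secretion systems and start the NLRC4 inflammasome, showed the same mixture. Naip2 fell (86.7 ± 11.7 CPM in KO and 124 ± 19.3 CPM in WT libraries; SD, n = 15 each; -0.53 ± 0.06, edgeR adjusted p = 1.85e-07), and so did Naip5 (22.7 ± 7.89 CPM in KO and 34.4 ± 7.12 CPM in WT libraries; -0.57 ± 0.13, edgeR adjusted p = 0.00826). Naip1, at a low level, rose (0.983 ± 0.671 CPM in KO and 0.253 ± 0.206 CPM in WT libraries; 1.95 ± 0.42, edgeR adjusted p = 0.00585). The pseudogene Naip3 measured 2.18 to 5.12 CPM with a median of 2.97 CPM in KO libraries and 0.106 to 1.44 CPM with a median of 0.350 CPM in WT libraries (2.83 ± 0.28, edgeR adjusted p = 5.98e-08). Sequence shared with other genes made up 29.1% of the 100-base stretches of Naip3, 16.2% of Naip5, 13.6% of Naip1 and 4.66% of Naip2. Among 20 tested inflammasome genes 1 rose and 3 fell (Naip2, Naip5 and Nlrp1b), with a median of -0.07. That is 4 called of 20 genes, against 5.84% of all genes. Naip5 was not called with the other-cell marker covariate.

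Iqgap2, a scaffold protein of the cytoskeleton, showed one of the largest drops. It measured 3.43 to 57.2 CPM with a median of 22 CPM in KO libraries and 87.9 to 160 CPM with a median of 110 CPM in WT libraries (-2.31 ± 0.27, edgeR adjusted p = 9.68e-07). The KO libraries varied widely, and KO control 6 and KO fibril 5 lay far above the others of their groups. Eps8l1, an actin regulator, was at 0 to 2.07 CPM in KO and 2.65 to 4.66 CPM in WT libraries (-3.12 ± 0.53, edgeR adjusted p = 4.62e-04). Slc1a5, which carries neutral amino acids such as glutamine, averaged 5.68 ± 2.15 CPM in KO and 12.6 ± 2.95 CPM in WT libraries (-1.13 ± 0.13, edgeR adjusted p = 4.60e-07). It was the 1 called gene of 15 amino acid transport genes (6.67%, against 5.84% of all genes). Kif21a, a kinesin motor, was higher in KO cells, with 3.76 to 11.6 CPM in KO and 0 to 4.75 CPM in WT libraries (2.87 ± 0.37, edgeR adjusted p = 5.59e-06). Ercc2, a helicase of nucleotide excision repair, Smg9, of nonsense-mediated decay, and Mapk14, the p38α kinase, fell by 0.67, 0.55 and 0.34 on the log2 scale, with the same sign in every treatment. The tubulin-like pseudogenes Gm14150 and Gm17383 rose, but 54.4% and 57.7% of their 100-base stretches occur in other genes.

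**Figure D2:**
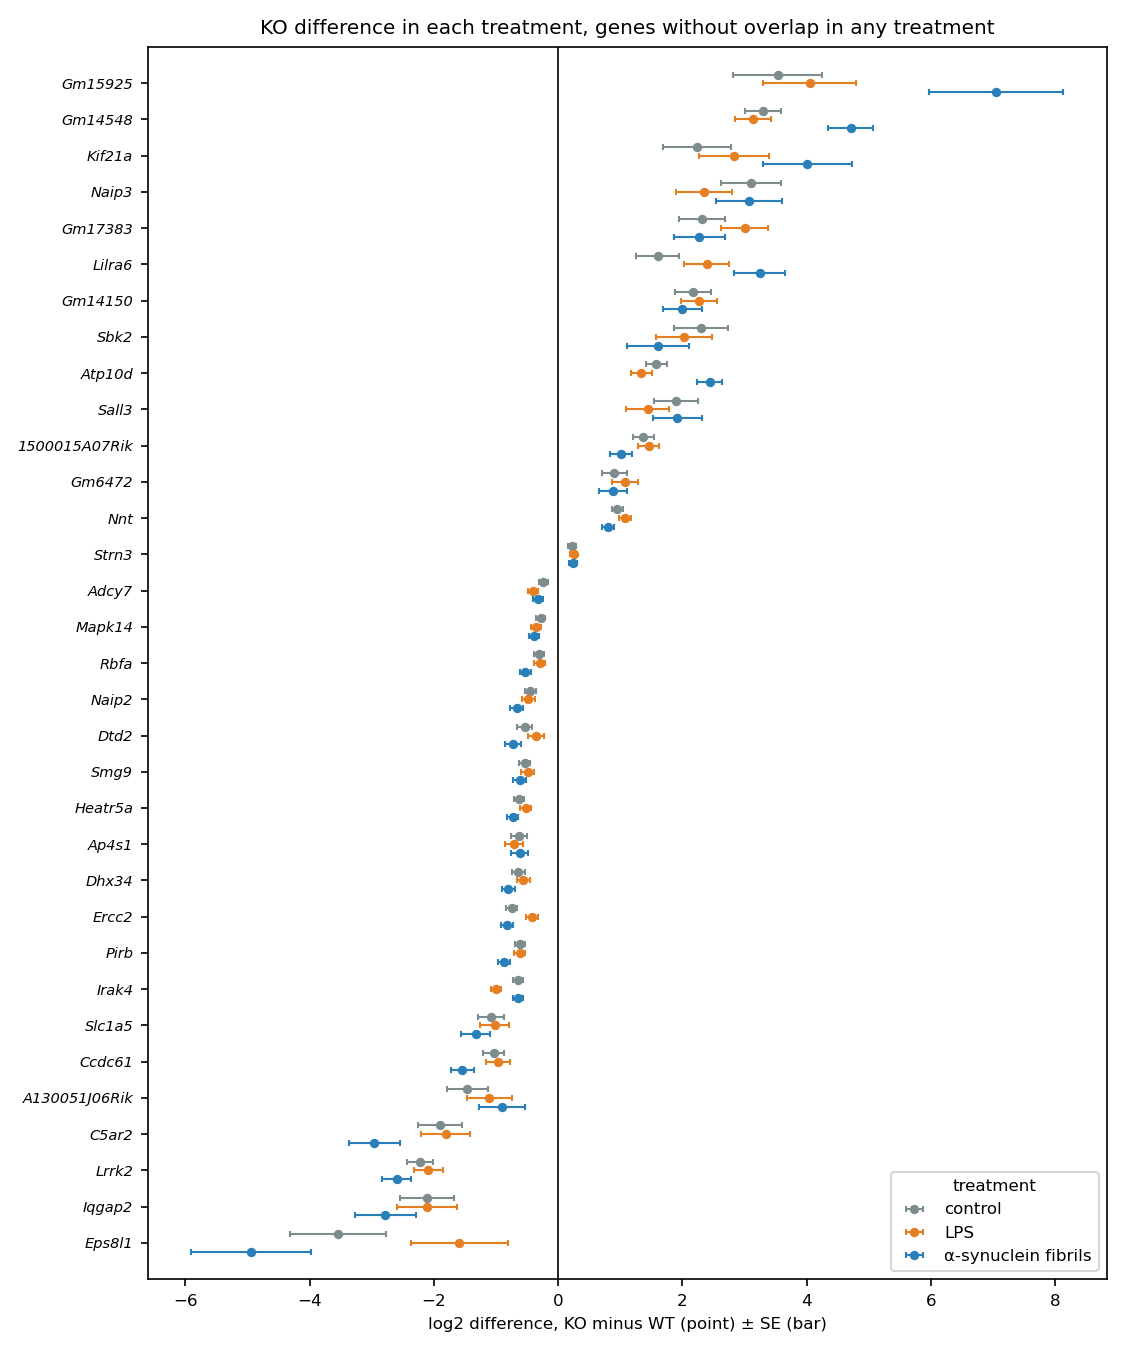
Log2 difference, KO minus WT, with its SE in controls (grey), with LPS (orange) and with fibrils (blue) for the 33 genes whose genotypes did not overlap in any treatment. The 3 estimates lie on 1 side of 0 for each gene, from Eps8l1 at the low end to Gm15925 at the high end.

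Consistency over treatments was examined in 3 ways. First, the 3 single-treatment differences had 1 sign in 825 of 838 called genes (98.4%), against 38.9% of all genes tested, although the call itself used all 3 treatments. The 13 exceptions were small or mixed, such as Lpcat3, which remodels membrane phospholipids (-0.42 in controls, 0.03 with LPS and -0.39 with fibrils), and the macrophage fusion gene Dcstamp (-1.35, 0.12 and -2.19). Second, the test for a KO difference that depends on treatment called 1 gene (0.00697%), Noc4l, a ribosome assembly factor. Noc4l had a median of 7.44 CPM in KO and 10.4 CPM in WT libraries with LPS, 11.2 CPM in KO and 8.35 CPM in WT libraries with fibrils, and 9.48 CPM in KO and 9.19 CPM in WT controls. The genotypes did not overlap with LPS or with fibrils. The differences of -0.47 with LPS, 0.43 with fibrils and 0.01 in controls gave Noc4l an interaction adjusted p of 0.0254 in edgeR, and no gene was called with library size scaling, with no filter or in 11 of 30 omissions of 1 library. An unadjusted p under 0.05 for the interaction was found in 2241 genes (15.6%), so few calls do not show that the treatments acted alike, and DESeq2 called 321 genes for it. None of the 838 genes was called for the interaction by edgeR, and 14.4% of them had an unadjusted p under 0.05.

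As the last way, genes were called from 2 treatments and then read in the one left out, whose libraries had no part in the call. With controls held out, 352 genes (2.57%) were called, and of the 343 tested in controls 97.4% had the same sign there, against 69.8% of all genes. A same-sign unadjusted p under 0.05 was reached by 39.4% of them, against 4.43% of all genes. With LPS held out, 271 genes (1.93%) were called, 86.6% of 253 had the same sign against 56.7% of all genes, and 43.5% had a same-sign p under 0.05 against 15.7%. With fibrils held out, 253 genes (1.79%) were called, 76.4% of 246 had the same sign against 53.9%, and 42.3% had a same-sign p under 0.05 against 14.1%. The held-out differences were smaller than those behind the call. For genes called higher the medians were 0.59 in held-out controls, 0.68 with LPS and 0.38 with fibrils, against 0.92, 1.23 and 0.62 in the 2 treatments used. In all 3 rotations 82 genes passed with the same sign and an unadjusted p under 0.05, among them Lrrk2, Nnt and Irak4. That is beside 14346 genes tested over all treatments. The rotations reuse the same 30 libraries, so passing all 3 is not 3 separate tests.

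**Figure D3:**
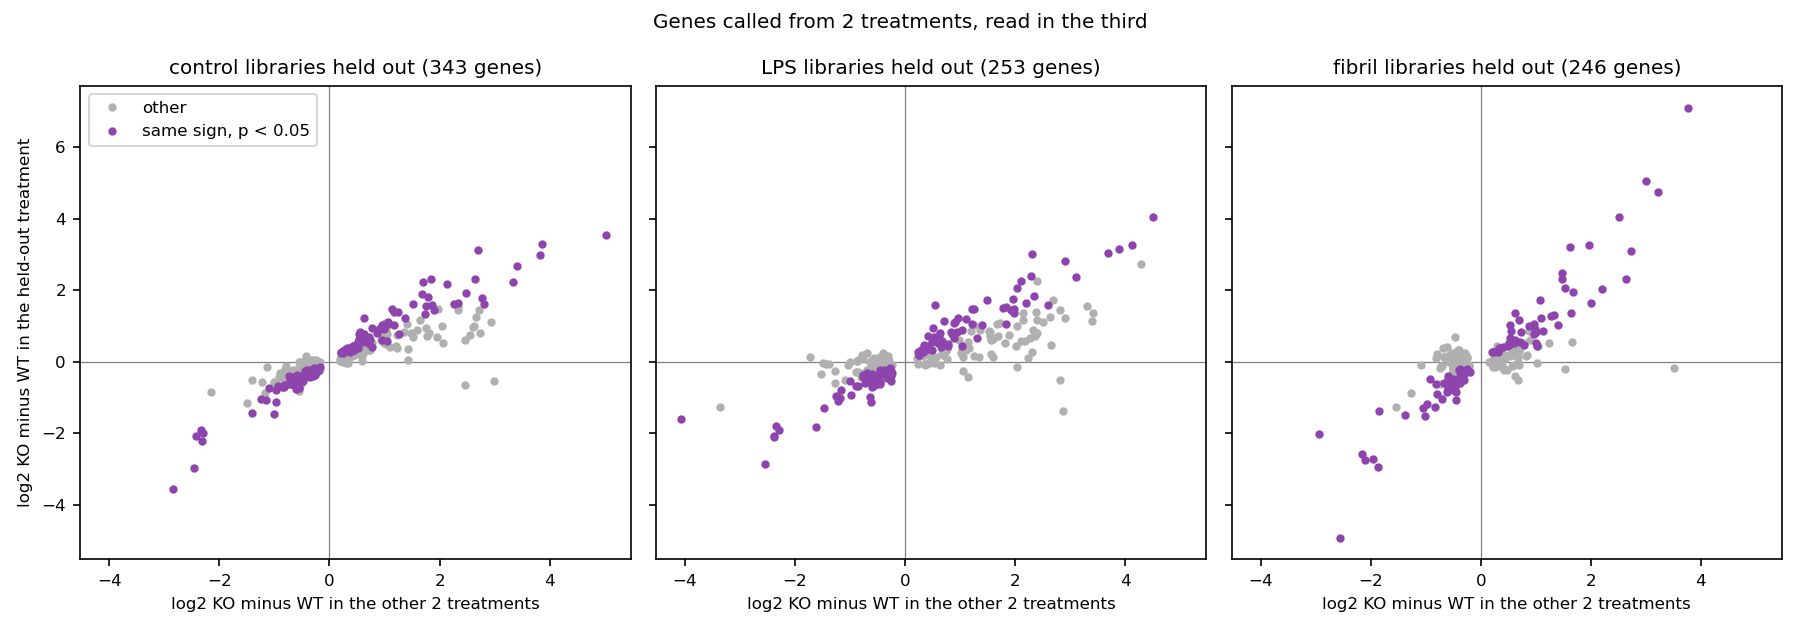
Each point is a gene called from 2 treatments, with its log2 difference, KO minus WT, in those treatments on the x axis and in the held-out treatment on the y axis. Purple points had the same sign and an unadjusted p under 0.05 in the held-out treatment. They make up 39.4% of genes for controls, 43.5% for LPS and 42.3% for fibrils.

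Single treatments, each fitted on its own libraries, gave unequal numbers. In controls 17 of 13113 genes (0.130%) were called, with LPS 1097 of 13093 (8.38%) and with fibrils 757 of 12663 (5.98%). Of the 838 additive calls, 15 were also called in all 3 of these fits, 30 in 2, 342 in 1 and 451 in none. The calls with LPS were mainly lower in KO cells (812 of 1097). Of 1090 LPS calls also tested in controls, 88.3% had the same sign there, against 66.7% of all genes, and of 1089 tested with fibrils, 40.3% had the same sign, against 48.7% of all genes. Of the fibril calls, 88.7% had the same sign in controls, against 59.2% of all genes, and 63.7% with LPS, against 48.7%. Of the 17 control calls, 16 had the same sign with LPS and 17 with fibrils. The log2 differences over all genes correlated at r = 0.48 between controls and LPS, 0.52 between controls and fibrils and 0.15 between LPS and fibrils, as a description across genes, which are not independent. No library is shared between these fits. Within them KO LPS 1 and 2, and the WT fibril libraries, were closer to each other than most libraries of a group. The LPS and fibril calls count them as separate replicates, which the labels do not state. With 1 library left out, the number called ran from 5 to 15 in controls, from 272 (without KO LPS 1) to 1655 (without KO LPS 3) with LPS, and from 250 (without WT fibril 2) to 1159 (without KO fibril 5) with fibrils.

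The called genes were not evenly placed in the genome. Chromosome 7 held 100 calls among 1075 tested genes (9.30%) and 26 of the 90 genes with an adjusted p under 0.001. A share of 2.42% of chromosome 7 genes passed 0.001, followed by 2.02% on chromosome 12, 1.89% on chromosome 18, 1.5% on chromosome 15, which holds Lrrk2, and 1.06% on chromosome 13, against 0.627% of all genes. On chromosomes 3 and 10 none passed. Within 5 Mb of Lrrk2 10 of 53 tested genes were called (18.9%, against 5.84% of all genes), with a median difference of 0.00. Irak4, Plxnb2, A130051J06Rik, Rabl2 and Zcrb1 fell, and Kif21a, Cntn1, Fam19a5, Tmem117 and Pdzrn4 rose. The calls of Zcrb1, Pdzrn4 and Tmem117 were lost with the marker covariate, and that of Zcrb1 also with RLE scaling and in 20 of 30 omissions of 1 library. Plxnb2, a semaphorin receptor, averaged 451 ± 59.0 CPM in KO and 573 ± 48.1 CPM in WT libraries (SD, n = 15 each; -0.36 ± 0.06, edgeR adjusted p = 1.34e-04).

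A set of 5 stretches, chosen after the positions were seen, held 27 of the 33 separated genes and 48 of the 90 at 0.001, among 569 of the 14346 tested genes. The largest was 7:1-30000000, with 58 of 288 genes called (20.1%), 39 of them lower, and 12 separated genes, of which Pirb, Ercc2, Ccdc61, C5ar2, Slc1a5, Dhx34, Smg9 and Eps8l1 were lower and Gm14548, Lilra6, Gm15925 and Sbk2 higher in KO cells. The others were 12:50000001-60000000 with 11 of 49 called (Heatr5a, Ap4s1, Dtd2 and Strn3 separated), 13:90000001-120000000 with 14 of 137 (Nnt, Iqgap2, Naip2 and Naip3), 15:90000001-100000000 with 13 of 70 (Lrrk2, Irak4, Kif21a and A130051J06Rik) and 18:80000001-90000000 with 9 of 25 (Gm17383, Sall3 and Rbfa). Outside them 733 of 13777 genes were called (5.32%), 42 at 0.001, and 6 genes were separated: Atp10d, Gm14150, 1500015A07Rik, Gm6472, Mapk14 and Adcy7. Whether these stretches differ in sequence between the lines was not tested, and linked differences and Lrrk2 loss cannot be told apart.

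**Figure D4:**
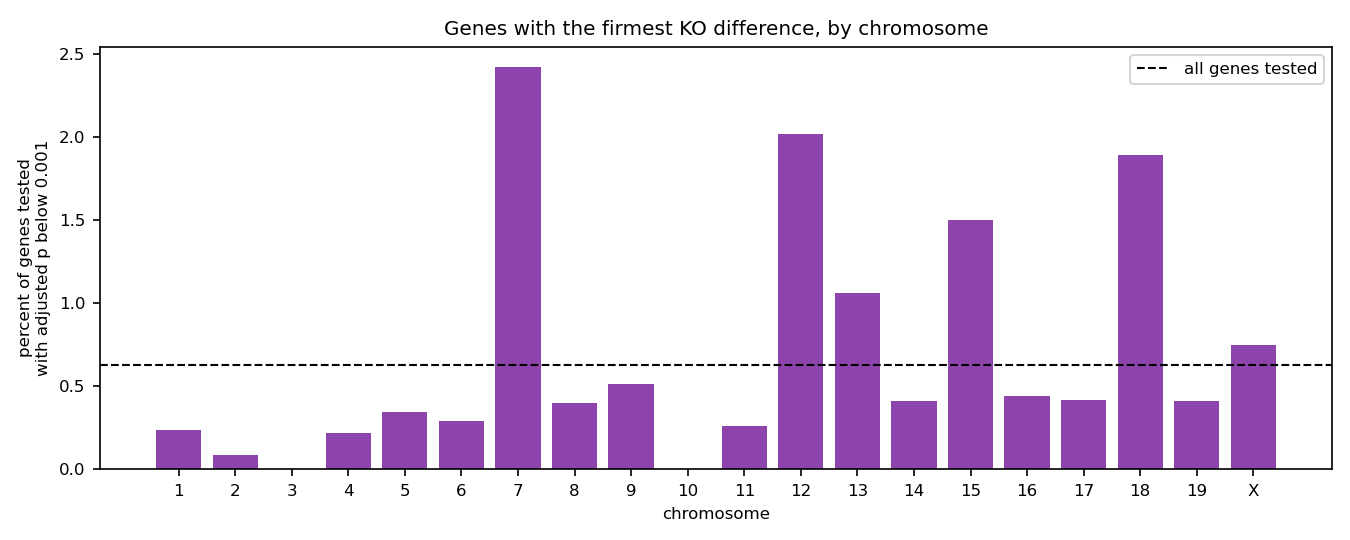
Percent of tested genes on each chromosome with an adjusted p under 0.001 for KO against WT over all treatments. The dashed line is the share over all genes, 0.627%. Chromosomes 7, 12, 18, 15 and 13 stand above 1%.

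Of 32 tested Rab substrates and partners of LRRK2 none rose and 5 fell (15.6% called, against 5.84% of all genes), by small amounts, with a median of -0.08 against 0.00 over all genes. Rac1, a GTPase of the actin cytoskeleton, averaged 376 ± 21.5 CPM in KO and 426 ± 17.9 CPM in WT libraries (SD, n = 15 each; -0.18 ± 0.03, edgeR adjusted p = 6.96e-04). Rab8a, a direct substrate, averaged 95.8 ± 12.1 CPM in KO and 107 ± 14.6 CPM in WT libraries (-0.17 ± 0.04, edgeR adjusted p = 0.0237). Rilpl2, an effector that binds phosphorylated Rabs, Rab7 and Pip4p1 were the others. With library size as the only scaling none of the 5 remained. With the other-cell marker covariate 1 gene of the list was called lower and 1 was called higher. Among 22 tested Parkinson's disease risk genes 2 rose (Inpp5f and Stk39) and 2 fell (Atp13a2 and Bst1), 18.2% against 5.84% of all genes, and none was called with the marker covariate.

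Inflammatory genes downstream gave few calls. None of 27 tested cytokines and chemokines was called in edgeR, where 6 had an unadjusted p under 0.05, and DESeq2 and limma-voom called 1 each. Their median difference was 0.03 in controls, -0.45 with LPS and 0.63 with fibrils, and 4 of the 27 had 1 sign throughout. The additive fit averages differences of opposite sign, so the lack of calls does not show that these genes were alike in both genotypes. Tnf, a cytokine induced by LPS, averaged 115 ± 37.7 CPM in KO and 99.8 ± 25.1 CPM in WT controls, 1989 ± 184 CPM in KO and 1992 ± 379 CPM in WT libraries with LPS, and 622 ± 192 CPM in KO and 484 ± 29 CPM in WT libraries with fibrils (SD). Its difference over treatments was 0.18 ± 0.12 (edgeR adjusted p = 0.352). Il1b, which encodes interleukin-1β, averaged 35.4 ± 15.7 CPM in KO and 36.8 ± 26.2 CPM in WT controls, 815 ± 89.4 CPM in KO and 1254 ± 391 CPM in WT libraries with LPS, and 229 ± 218 CPM in KO and 79.3 ± 18.7 CPM in WT libraries with fibrils. Its differences of -0.06 in controls, -0.62 with LPS and 1.53 with fibrils were not of 1 sign (0.22 ± 0.36 over treatments, edgeR adjusted p = 0.757). Of 31 Toll-like and interleukin-1 receptor signalling genes Irak4 and Tlr8 fell (6.45%, against 5.84% of all genes). Of 27 NF-kB genes Relb and Rela fell (7.41%). Both NF-kB calls were lost with library size scaling, without the controls and without the LPS libraries. The calls of Rela and Tlr8 were lost with no filter, with the marker covariate and with 1 surrogate variable. Tlr8 was also not called when any 1 treatment was left out. Of 34 interferon response genes Irf9 alone was called lower (2.94%). It lost the call in 23 of 30 omissions of 1 library, with RLE or library size scaling, with no filter and with the marker covariate. The differences of 31 were below 0 and the median was -0.51. That median was -1.31 with LPS, -0.32 in controls and -0.08 with fibrils. Summed, the 34 genes spanned 799 to 12918 CPM in KO and 2822 to 7547 CPM in WT libraries. Without the 7 libraries named above 31 of the 34 were called lower. Those 7 were chosen after the data were seen, so that count is no separate test. They include KO control 6 and KO fibril 5, the highest KO libraries for Irf9 (91.6 and 97.5 CPM). Sod2, the mitochondrial superoxide dismutase induced by NF-kB, averaged 476 ± 349 CPM in KO and 455 ± 314 CPM in WT libraries (0.02 ± 0.08, edgeR adjusted p = 0.925).

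Lysosomal and lipid genes included more calls, nearly all lower. Of 45 lysosomal genes 6 fell and 1 rose (15.6% against 5.84% of all genes), with a median of -0.11. The median was -0.03 in controls, -0.04 with LPS and -0.28 with fibrils. The cathepsin Ctss averaged 1694 ± 205 CPM in KO and 2270 ± 462 CPM in WT libraries (SD, n = 15 each; -0.42 ± 0.10, edgeR adjusted p = 0.00853), and the mannosidase Man2b1 averaged 367 ± 79.2 CPM in KO and 469 ± 63.8 CPM in WT libraries (-0.35 ± 0.08, edgeR adjusted p = 0.00578). Npc2, a cholesterol carrier of the lysosome, Asah1 and Atp6v0d2 fell too, and Ctse rose. With the other-cell marker covariate none of the list was called lower and 2 were called higher, and without the fibril libraries none was called. Of 16 genes of lipid efflux controlled by the liver X receptor 4 fell (Lpcat3, Abca7, Apoe and Srebf1). That was 25.0%, against 5.84% of all genes, and the median of the list was -0.21. By treatment this median was -0.19 in controls, 0.01 with LPS and -0.46 with fibrils, so it was not shared by all treatments. Apoe, the main lipid carrier of glia, averaged 5842 ± 1367 CPM in KO and 8316 ± 1955 CPM in WT libraries (-0.49 ± 0.13, edgeR adjusted p = 0.0201). Its difference was -0.94 with fibrils, -0.31 with LPS and -0.26 in controls, and it was not called with the marker covariate. Apoc1, its neighbour on chromosome 7, went up (20.6 ± 13.4 CPM in KO and 5.97 ± 3.75 CPM in WT libraries; 1.88 ± 0.30, edgeR adjusted p = 2.00e-04).

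Of 21 cholesterol synthesis genes, each had its 3 treatment differences on 1 side of 0, 20 of them below, with a median of -0.32. Among them Dhcr7 alone passed the test, 4.76% against 5.84% of all genes (7.93 ± 2.47 CPM in KO and 11.9 ± 3.88 CPM in WT libraries; -0.56 ± 0.16, edgeR adjusted p = 0.0316). With the other-cell marker covariate 19 of the 21 were called lower, with a median of -0.86. With 1 surrogate variable 19 were again called lower, with a median of -0.78. Of 31 phagocytosis genes 4 fell (Mrc1, Scarb1, Dock2 and Lrp1), 12.9% of the list. The calls of Mrc1, Scarb1 and Dock2 were lost when any 1 treatment was left out. Those of Mrc1 and Dock2 were also lost with the marker covariate and with 1 surrogate variable. Of 21 genes of disease-associated microglia 3 fell (Timp2, Apoe and Cd9), 14.3% of the list. With the marker covariate those 3 were not called. The median of the 21 genes was -0.04 in controls, 0.06 with LPS and -0.49 with fibrils. No gene was called in edgeR among 28 autophagy, 42 nuclear and 13 mitochondrial respiratory chain, 25 endoplasmic reticulum stress, 32 cell cycle, 15 histone and 24 immediate early genes. An unadjusted p under 0.05 was found in 2 of the autophagy, 7 of the nuclear and 0 of the mitochondrial respiratory chain, 2 of the endoplasmic reticulum stress, 3 of the cell cycle, 0 of the histone and 4 of the immediate early genes. DESeq2 called 1 to 2 genes of the nuclear respiratory chain, cell cycle and immediate early lists, and 8 cell cycle genes were called higher without the 7 libraries. In the remaining lists the calls were Gstp1 up of 35 antioxidant genes, Cyba down of 8 NADPH oxidase genes, Gpi1 and Pfkp down of 24 glycolysis genes, Tapbp down of 21 antigen presentation genes, and Atp10d and Atp9a up and Atp8b4 down of 15 flippases. With the marker covariate Cyba, Gpi1, Pfkp, Tapbp, Atp9a and Atp8b4 lost their calls, and with 1 library left out Tapbp lost it in 24 and Pfkp in 17 of 30 cases.

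Markers of other brain cells were among the increases. Of 13 oligodendrocyte markers 6 rose (46.2%, against 5.84% of all genes) and none fell, with a median of 1.87. Of 5 neuron markers 3 rose (60.0%), of 12 astrocyte markers 1 (S100b, 8.33%) and of 12 fibroblast markers 1 (Postn, 8.33%). Medians were 1.72 for neuron, 1.42 for astrocyte and 0.81 for fibroblast markers, and all 12 astrocyte markers lay above 0. With fibrils the medians were 4.46 for oligodendrocyte, 3.56 for neuron, 4.30 for astrocyte and 4.00 for fibroblast markers. In the same order they were 1.90, 1.01, 0.62 and 0.45 in controls, and 1.25, 1.23, 0.47 and -0.64 with LPS. Of 18 microglia identity genes 1 fell (Csf1r, the receptor for the survival factors of microglia), 5.56% of the list, with a median of -0.08. Csf1r averaged 1101 ± 191 CPM in KO and 1520 ± 311 CPM in WT libraries (SD, n = 15 each; -0.45 ± 0.10, edgeR adjusted p = 0.00657), and -0.90 with fibrils was its largest difference. Its call was lost with the other-cell marker covariate and without the fibril libraries. Border macrophage markers Mrc1 and Ms4a7 fell, 2 of 8 (25.0%), and of 4 vessel markers Kdr fell (25.0%). These 3 were not called with the marker covariate either. Cldn11, a tight junction protein of myelin, shows how uneven these levels were. It ran from 0.0542 to 26.6 CPM with a median of 1.12 CPM in KO libraries, against 0 to 3.43 CPM with a median of 0.0507 CPM in WT libraries, and the genotypes overlapped in controls and with LPS (3.71 ± 0.89, edgeR adjusted p = 0.0125). Without KO LPS 4 the call was lost (edgeR adjusted p = 0.0880).

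The summed level of the 13 oligodendrocyte markers was 98.5 to 850 CPM in KO and 90.2 to 211 CPM in WT libraries, and that of the 13 astrocyte markers 38.1 to 320 CPM in KO and 16.5 to 283 CPM in WT libraries. The 11 neuron markers summed to 2.64 to 26.5 CPM in KO and 0.624 to 19.3 CPM in WT libraries, and the 13 fibroblast markers to 50.3 to 163 CPM in KO and 25.8 to 178 CPM in WT libraries. No marker of these lists was at 0 in every library of a genotype. In the 4 WT fibril libraries 2 oligodendrocyte, 2 astrocyte and 2 neuron markers were at 0. Fewer cells of a type and less RNA per cell cannot be told apart in such bulk samples. With the mean log2 CPM of astrocyte, oligodendrocyte and fibroblast markers as a covariate, 244 of the 838 genes kept their call. The 33 separated genes were among them, which their choice by separation largely fixes. The part of these cells in the remaining calls was not tested.

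**Figure D5:**
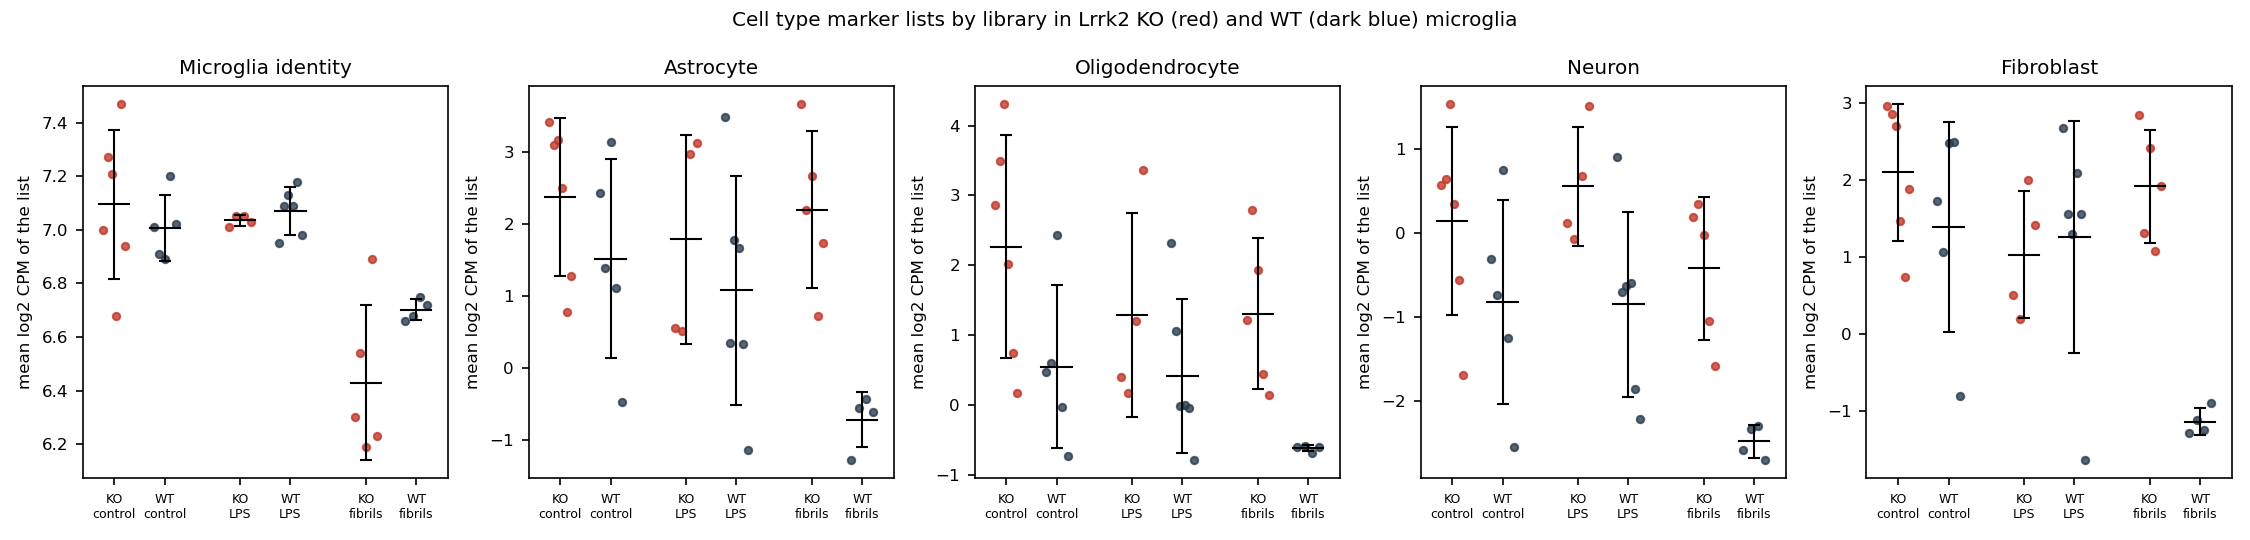
Mean log2 CPM of each cell type marker list by library, in KO (red) and WT (dark blue) libraries of each treatment, with mean ± SD. The y axes differ between lists. Microglia identity genes lie between 6.19 and 7.47, and the other lists vary by more than 1 log2 unit within each group except WT fibrils, whose 4 libraries lie close together at low values.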

How the data were processed

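Total RNA of primary microglia, freed of ribosomal RNA, went into stranded libraries, per the labels' protocols. The authors deposited raw counts for each Ensembl transcript, not normalized. The submitters' processing notes name CASAVA 1.7.1, STAR 2.4.2a and mm10. The sources used here do not give the counting program, nor whether it used strand, so reads of overlapping or antisense genes may be mixed.

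Counts were summed to genes with GENCODE M21, which matched 91320 of 94647 transcripts (unmatched transcripts held 0.779% to 0.891% of a library's counts and were left out). Genes passing edgeR's filter for the 6 groups were scaled with TMM factors (0.827 to 1.14) and fitted in edgeR 4.0.16 (R 4.3.3) with genotype plus treatment, by the quasi-likelihood test with Benjamini-Hochberg adjustment (26 residual degrees of freedom; common biological CV 0.307). The interaction was tested in a model with a mean per group. CPM use TMM-adjusted library sizes, with a prior count of 2 on the log2 scale. Shared sequence was counted as the share of 100-base stretches of a gene's transcript that occur in another gene. Depth limits genes of a few CPM most. No pair of libraries held identical counts, but some were close. The chi-square per degree of freedom between KO LPS 1 and 2 was 7.77, against 35.8 to 76.9 for the other KO LPS pairs. Among the WT fibril libraries it was 9.36 to 34.1, against 35.8 to 238 among the KO fibril libraries. Whether the close libraries came from separate cultures is not stated.

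Alternatives were RLE and library size scaling, no filter and a filter of 1 CPM in 4 libraries, DESeq2 1.42.0, limma-voom (limma 3.58.1), equal weight per treatment, a replicate block, and leaving out each treatment and each library. Those without 7 libraries, with an other-cell marker covariate, with 1 surrogate variable (sva 3.50.0) and with protein-coding genes only were chosen after seeing the data. The tests were checked on simulated data. Named genes are, from called genes averaging 2 or more in log2 CPM, without those named by number, the 8 most increased, the 8 most decreased and the 8 of smallest p; up to 3 called genes of each list; called genes within 5 Mb of Lrrk2; 4 genes of smallest interaction p; Lrrk2, Lrrk1, Nnt, Tnf, Il1b and Sod2; and genes behind counts of 5 or fewer. Other genes were named after their values were seen. A few genes are left out of the text. The comparison, the lists and the rule were chosen with earlier results of these data known.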

Additional observations from a re-analysis of the deposited data

Results flagged for a closer look

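In 20 named genes with large or firm differences, 120 groups of 4 to 6 libraries were searched for 1 library far from the rest, and 23 groups held one; chance flags about 1 in 20. Many were 4 libraries high in Gpd1 and Syt4. KO LPS 4 was the highest of its group for Gpd1 (32.0 CPM, next 2.02) and Syt4 (20.2 CPM, next 2.02). KO fibril 2 was the highest for Gpd1 (15.4 CPM) and Syt4 (12.6 CPM). WT control 3 was the highest for Gpd1 (5.15 CPM) and Syt4 (8.30 CPM). WT LPS 1 was the highest for Gpd1 (4.38 CPM), Syt4 (5.00 CPM), Kif21a (4.75 CPM), Fabp7 (11.6 CPM) and Atp10d (12.1 CPM), and the lowest for Iqgap2 (87.9 CPM, next 133). KO control 3 stood out for Gpd1 (63.2 CPM, next 22.8). Syt4 was at 0.0608 CPM in WT fibril 3 and at 0 in the other libraries of that group.

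Other single libraries stood out in 1 or 2 genes. KO control 6 was high for Lilra6 (19.6 CPM, next 12.3) and Iqgap2 (57.2 CPM, next 27.7), and KO fibril 5 was high for Iqgap2 (45.1 CPM, next 10.6) and low for Heatr5a (89.8 CPM, next 111). KO fibril 3 was high for Atp10d (29 CPM, next 21.5). WT LPS 4 was high for Lilra6 (4.63 CPM), WT LPS 2 for Apoc1 (18 CPM, next 8.14) and WT LPS 6 for Bhlhe40 (61.3 CPM, next 25.6), and WT LPS 6 was low for Lrrk2 (11.4 CPM, next 15.3).

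Noc4l differed between treatments in its KO difference (edgeR interaction adjusted p = 0.0254), with KO libraries below WT libraries with LPS and above them with fibrils. The call was lost with library size scaling, with no filter and in 11 of 30 omissions of 1 library, where no gene was called.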

How the results depend on the processing

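Against 838 calls over all treatments (450 higher, 388 lower), library size as the only scaling gave 1490 (1305 higher, 185 lower, 1468 with 1 sign in every treatment), no filter on low counts 227 lower, DESeq2 1599 (1089 higher) and equal weight per treatment 1610 (1016 higher, 594 lower). Leaving out the controls gave 352 (158 higher, 194 lower), LPS 271 (156 and 115) and fibrils 253 (111 and 142). Without the 7 libraries that stand apart there were 2611 (1366 higher, 1245 lower, 2502 with 1 sign in every treatment), with the other-cell marker covariate 475 (261 higher, 214 lower) and with 1 surrogate variable 537 (249 higher). With 1 library left out the calls ran from 509 to 1514, the higher ones from 257 to 942 and the lower ones from 223 to 699. Totals moved by over 1.5 times without KO LPS 4 (509), KO control 6 (1424) and WT LPS 1 (1514). The higher calls did also without KO control 3 (298), WT control 3 (698), KO control 6 (725), KO LPS 4 (257) and WT LPS 1 (942), and the lower calls without KO LPS 3 (238), KO LPS 4 (252), KO fibril 5 (596), KO control 6 (699) and WT control 5 (223). The cause was not tested. RLE scaling, limma-voom, the filter of 1 CPM in 4 libraries and protein-coding genes only kept totals within 1.5 times, and no named gene reversed its direction while called.

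The interaction calls, 1 in edgeR, were 0 with library size scaling and with no filter, 321 in DESeq2, 269 without the 7 libraries and 0 to 73 with 1 library left out, highest without WT control 6 (73), KO fibril 2 (65), WT LPS 6 (46) and KO LPS 3 (16).

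For single treatments 17 genes were called in controls, 1097 under LPS and 757 under fibrils. In controls library size scaling gave 10, DESeq2 73, omission of the 7 libraries 3, and a shared spread over all 30 libraries 46. With LPS DESeq2 gave 1994 and the shared spread 248. With fibrils DESeq2 gave 1544, limma-voom 439, omission of the 7 libraries 1159 and the shared spread 1282. With 1 library left out, controls gave 5 to 15, lowest without KO control 2, WT control 2 or WT control 5 (5 each), and fewer than 12 without each other library except WT control 6. LPS gave 272 to 1655, with 272 without KO LPS 1, 330 without KO LPS 4, 436 without KO LPS 2, 500 without WT LPS 3, 708 without WT LPS 2 and 1655 without KO LPS 3. Fibrils gave 250 to 1159, with 250 without WT fibril 2, 276 without WT fibril 1, 301 without WT fibril 3, 307 without WT fibril 4, 415 without KO fibril 1, 428 without KO fibril 3 and 1159 without KO fibril 5.

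With the replicate number as a block, 962 genes were called over all treatments (529 higher, 433 lower), 49 for the interaction, 1 in controls, 705 with LPS and 580 with fibrils. The numbers share no stated origin. The deviations of same-numbered KO and WT libraries correlated at -0.52 to 0.49, with a median of 0.06, and 6 of 13 pairs were above 0.1, so the block was not used.

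Of 75 named genes called, 43 lost the call with the marker covariate and 33 with the surrogate variable. Depth limits genes of a few CPM, where most of the other-cell markers lie.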
